A study of Arabidopsis thaliana with 12 samples.

Results

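The 44 genes described here encode the nuclear subunits of both photosystems and of their chlorophyll-binding antennae in Arabidopsis thaliana, and they were taken by locus identifier from a table of 33602 genes. They comprise 21 antenna genes (LHCA1 to LHCA6 and the LHCB1 to LHCB7 copies), 22 genes of core and extrinsic subunits (12 PSA genes of photosystem I and 10 PSB genes of photosystem II) and PSBS, a photoprotective photosystem II protein. The libraries are polyA RNA-seq of whole Columbia-0 wild-type seedlings, 3 days old when treated, raised at 22 °C with 10 h a day of white light at 100 μmol per m2 and s and a red to far-red ratio of 1.1. For the 10 h photoperiod of day 4 the seedlings were kept under shade at 28 °C, under shade at 20 °C, in white light at 28 °C or in white light at 20 °C, with 3 biological replicates each, and were collected as that photoperiod ended. The red to far-red ratio of the shade treatment, and how many seedlings made up a replicate, are not given in the sources used here.

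Each photosystem has a reaction centre core, in part encoded in the plastid, to which nuclear-encoded antenna proteins pass excitation energy. LHCA proteins form the belt of photosystem I, LHCB1 to LHCB3 form the trimers known as LHCII, and LHCB4 to LHCB6 are the monomers that link those trimers to the photosystem II core. PSBO, PSBP and PSBQ shield the water-splitting manganese cluster on the lumen side. In seedlings these genes are known as light-induced genes of greening tissue.

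The 12 libraries held 3500325 to 4481869 reads each, so that 1 CPM (the read count scaled to a common library size) stood for 3.5 to 4.48 reads. Of the 44 genes all were measured in every library and all passed the filter on low values, which kept 21316 genes. Whole seedlings were sampled, so fewer green cells and less RNA per green cell cannot be told apart. RBCS1A, a small Rubisco subunit gene of green tissue, had 6484 to 10991 CPM under shade at 28 °C, 11135 to 12697 under shade at 20 °C, 8635 to 12918 in white light at 28 °C and 16217 to 16980 in white light at 20 °C. The 14 root markers summed to 0.0446 ± 0.0051%, 0.0393 ± 0.00043%, 0.0372 ± 0.0027% and 0.0355 ± 0.0022% of reads in the same order of groups (SD, n = 3 each), with WOX5 at 0 in 6 of 12 libraries and no other marker at 0. Reads of 18S ribosomal RNA made up 1.77 ± 0.55% of the libraries from shade at 28 °C, 0.749 ± 0.17% from shade at 20 °C, 1.42 ± 0.78% from white light at 28 °C and 0.982 ± 0.60% from white light at 20 °C.

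Together the 44 genes took 3.96, 3.02 and 3.52% of all reads under shade at 28 °C, 5.31, 5.86 and 4.91% under shade at 20 °C, 4.82, 4.45 and 3.76% in white light at 28 °C, and 7.32, 7.24 and 7.65% in white light at 20 °C. No library of a treated group reached the lowest library of white light at 20 °C. The mean share was 47.3% of the white light 20 °C level under shade at 28 °C, 72.4% of it under shade at 20 °C and 58.7% of it in white light at 28 °C. The LHCB1 to LHCB3 genes gave 31.6% of the members' reads in white light at 20 °C and accounted for 39.1% of the drop under shade at 28 °C.

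**Figure D1:**
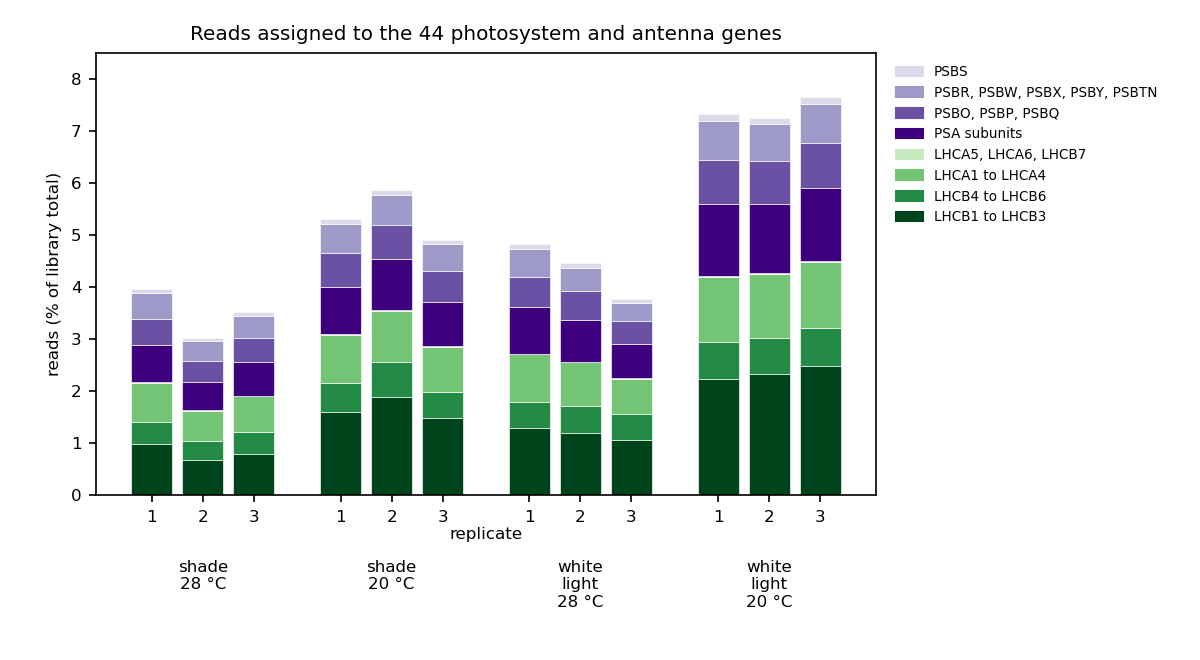
Stacked bars show the share of each library's reads (%) assigned to the 44 genes, by role, for the 3 replicates of each group. The bars reach 3.02 to 3.96% under shade at 28 °C, 4.91 to 5.86% under shade at 20 °C, 3.76 to 4.82% in white light at 28 °C and 7.24 to 7.65% in white light at 20 °C.

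Within the treated groups most members moved together from library to library. In white light at 20 °C replicates 1, 2 and 3 were the lowest for 16, 20 and 8 genes. How far all tested genes moved in this way was not counted. Replicate 2 of shade at 28 °C had the lowest value of its group for 42 of 44 genes, and replicate 3 of white light at 28 °C for 34 of 44. These libraries had the largest 18S shares of the series, 2.35% and 2.3%. Under shade at 20 °C, replicate 2 was the highest for 34 genes and replicate 3 the lowest for 39. Without the library with most 18S in each group, 42 members were lower under shade at 28 °C, 30 under shade at 20 °C and 41 in white light at 28 °C, each against white light at 20 °C. Of all tested genes 1192 were then lower under shade at 28 °C and 582 in white light at 28 °C. With all libraries these counts were 1582 and 1023. Under shade at 20 °C, too, fewer of all tested genes were lower than the 566 with all libraries.

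Differences below are log2 differences of the deposited log2 CPM values with their standard error (SE), and a gene was called changed at a Benjamini-Hochberg adjusted p under 0.05 in limma over all 21316 genes. Shade and warmth together, shade at 28 °C against white light at 20 °C, lowered 43 of the 44 genes and raised 0, where 7.42% of all tested genes were lower and 14.9% were higher. At an unadjusted p under 0.05, 44 were lower and 0 higher, against 10.4% and 23% of all tested genes. The median difference of the members was -0.98, against 0.16 over all tested genes. All 22 core and extrinsic subunit genes and 20 of 21 antenna genes were lower, as were 18 of 18 photosystem I genes and 25 of 26 photosystem II genes, LHCB7 being the gene not called.

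Shade alone, shade at 20 °C against white light at 20 °C, lowered 33 members and raised 0, where 2.66% of all tested genes were lower and 5.43% higher. Their median difference was -0.51, against 0.05 over all tested genes. At an unadjusted p under 0.05, 39 were lower and 0 higher, against 7.39% and 13.2% of all tested genes. Leaving out replicate 3 of shade at 20 °C gave 21 lower members, where 348 of all tested genes were lower, against 566 with all libraries. Warmth alone, white light at 28 °C against white light at 20 °C, lowered 41 members and raised 0, where 4.8% of all tested genes were lower and 10.8% higher. Their median difference was -0.80, against 0.16 over all tested genes, and at an unadjusted p under 0.05 the counts were again 41 and 0, where 7.74% and 20.9% of all tested genes passed. The 3 genes not called with warmth alone were LHCB4.2, LHCB7 and PSAD2. All 3 comparisons share the libraries of white light at 20 °C. Every library of the treated group lay below every library of white light at 20 °C for 44 members with both treatments, for 41 with shade alone and for 41 with warmth alone. The same held for 11.4, 9.55 and 8.95% of all tested genes in these comparisons.

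The log2 CPM values were used as deposited, and the median over all genes was then higher in the warm libraries. When the median of each library was subtracted, the lower genes made up 60.2% of all genes called with warmth alone, against 30.7% as deposited, 55.5% against 33.3% with both treatments and 74.9% against 47.6% with warmth under shade.

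By role, the LHCII trimer genes kept 34.8% of their white light 20 °C share of reads under shade at 28 °C, 70.5% under shade at 20 °C and 50.4% in white light at 28 °C. The monomeric photosystem II antenna kept 55.6, 80.2 and 70.7% in the same order of groups, and the photosystem I antenna LHCA1 to LHCA4 kept 54.1, 74 and 64.8%. The photosystem I subunits kept 46.5, 67 and 57%, the oxygen-evolving genes 53.5, 74.1 and 62.5%, and the small photosystem II subunits 59.8, 75.6 and 59.5%. In every class shade at 20 °C kept the most, and in all but the small photosystem II subunits shade at 28 °C kept the least.

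**Figure D2:**
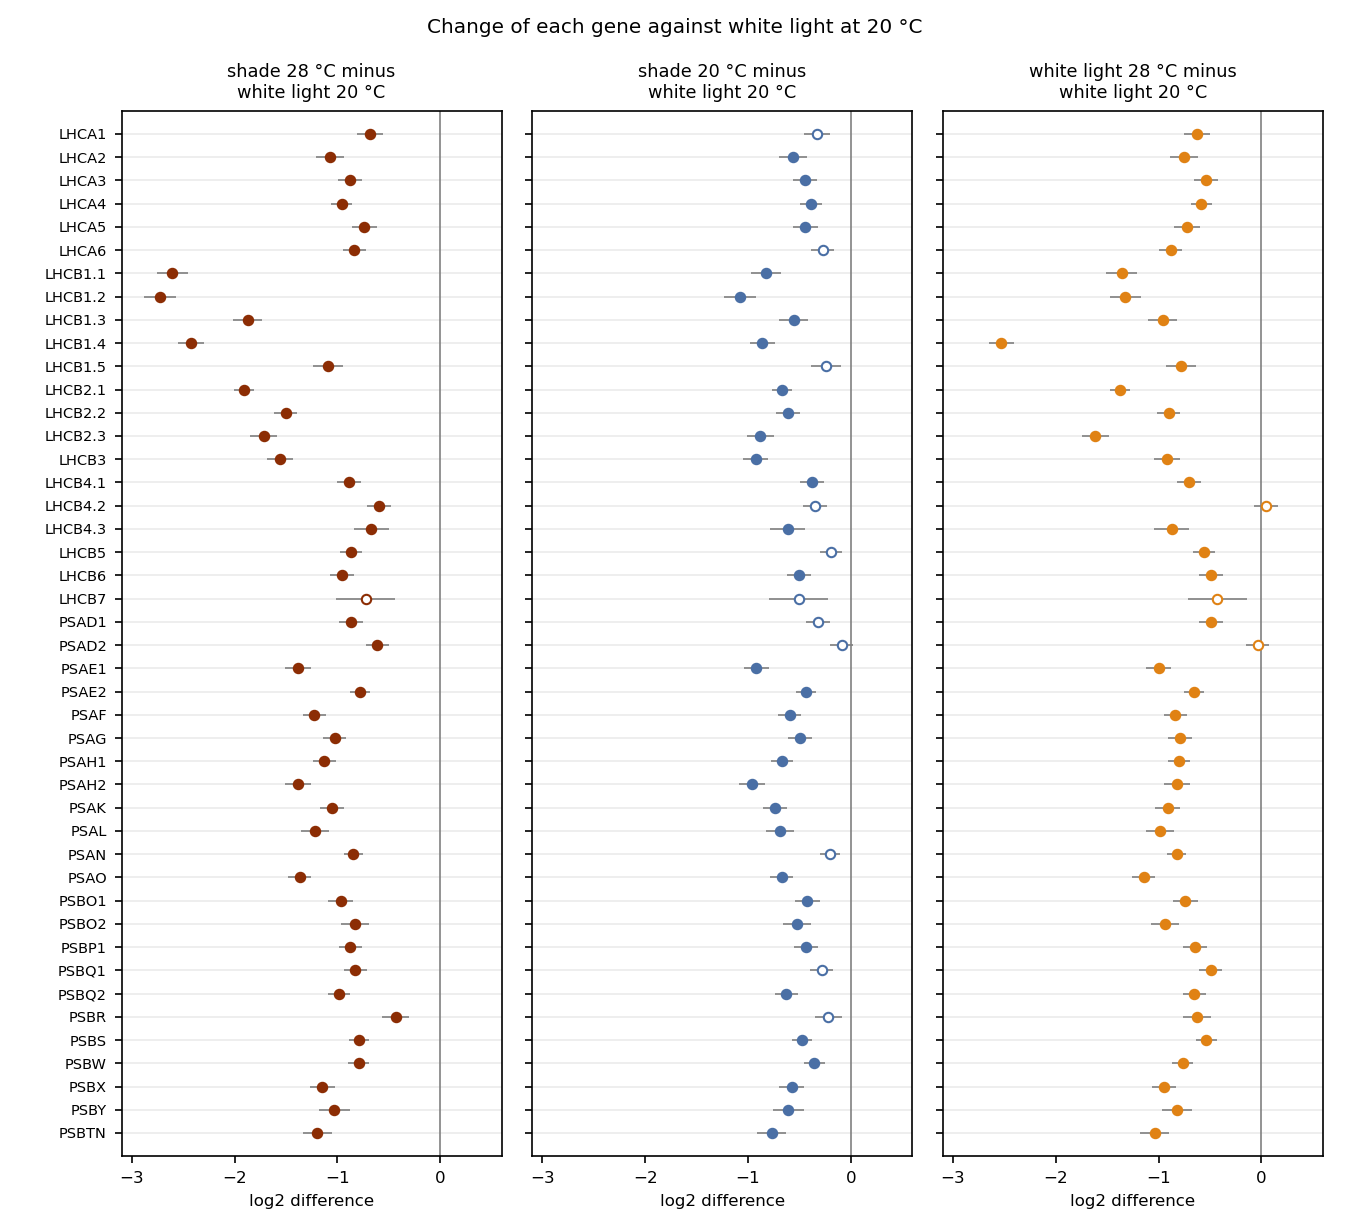
Points show the log2 difference of each of the 44 genes from white light at 20 °C, with bars of 1 SE, for shade at 28 °C, shade at 20 °C and white light at 28 °C; filled points passed an adjusted p of 0.05 and open points did not. The LHCB1.1, LHCB1.2 and LHCB1.4 points lie lowest under shade at 28 °C, at -2.60, -2.72 and -2.42, and LHCB4.2 and PSAD2 lie near 0 in white light at 28 °C.

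Adding shade at 28 °C, shade at 28 °C against white light at 28 °C, lowered 12 members and raised 0, where 1.9% of all tested genes were lower and 2.68% higher. Of these 12, 9 were antenna genes of 21 and 3 were core subunit genes of 22, namely PSAD2, PSAF and PSAH2. The antenna genes were LHCB1.1, LHCB1.2, LHCB1.3, LHCB2.1, LHCB2.2 and LHCB3 of the trimers, LHCB4.2 and LHCB6 of the monomers, and LHCA4. At an unadjusted p under 0.05, 22 members were lower and 0 higher, against 7.86% and 7.63% of all tested genes. Leaving out replicate 3 of white light at 28 °C gave 21 lower members, where 375 of all tested genes were lower, against 406 with all libraries. The lowest count on leaving out a library was below 12, as was the count with a constant prior variance. The members' median difference was -0.28 there. Adding warmth under shade, shade at 28 °C against shade at 20 °C, lowered 32 members and raised 0, where 1.99% of all tested genes were lower and 2.19% higher, with a median of -0.52. At an unadjusted p under 0.05, 41 were lower and 0 higher, against 5.83% and 10.6% of all tested genes. The count of 32 became 19 without replicate 2 of shade at 20 °C, 17 without replicate 2 of shade at 28 °C and 16 without the library with most 18S in each group. Of all tested genes 201, 242 and 190 were lower in these fits, against 425 with all libraries, so the calls fell over all genes as well.

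The LHCII trimer genes had the lowest median of the role classes with both treatments, -1.87. LHCB1.1, LHCB1.2 and LHCB1.3 lie close together on chromosome 1 and encode nearly the same protein, with 95.65 to 96.39% identical coding bases. LHCB1.4 and LHCB1.5 are neighbours on chromosome 2, on opposite strands, and share 86.83 to 90.42% of coding bases with the other copies and 91.42% with each other. How reads that fit several copies were counted is not given in the sources used here, so the level of a single copy is uncertain. No copy had the same reads as another gene in all libraries.

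LHCB1.2 (AT1G29910) had 260, 174 and 229 CPM under shade at 28 °C, 570, 996 and 564 CPM under shade at 20 °C, 569, 553 and 608 CPM in white light at 28 °C, and 1353, 1388 and 1592 CPM in white light at 20 °C. All libraries of shade at 28 °C lay below all others, all of white light at 20 °C lay above all others, and the 2 single treatments overlapped. Its difference was -2.72 ± 0.15 with shade and warmth together (adjusted p = 5.96e-13), -1.07 ± 0.15 with shade alone (adjusted p = 1.77e-05) and -1.32 ± 0.15 with warmth alone (adjusted p = 8.19e-07). LHCB1.1 and LHCB1.3 followed the same order of group means, with differences of -2.60 and -1.87 with shade and warmth together. For both copies every library of shade at 20 °C lay above every library of white light at 28 °C.

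LHCB1.5 (AT2G34420) had 5504, 3675 and 4213 CPM under shade at 28 °C, 8054, 8683 and 7219 CPM under shade at 20 °C, 6049, 5657 and 4733 CPM in white light at 28 °C, and 9048, 9472 and 9676 CPM in white light at 20 °C. Its libraries from both 28 °C groups lay below those from both 20 °C groups. It fell by 1.09 ± 0.15 on the log2 scale with shade and warmth together (adjusted p = 2.43e-06), the smallest fall among the 9 trimer genes, and by 0.79 ± 0.15 with warmth alone (adjusted p = 4.07e-04). With shade alone its difference was -0.24 ± 0.15 (adjusted p = 0.383). Annotated genes on the opposite strand overlap LHCB1.5, and likewise LHCA4, LHCA5, LHCB1.3, LHCB2.3, LHCB3, LHCB4.2, LHCB6, PSAE1, PSAE2, PSAG, PSAH1, PSAH2, PSAN, PSBP1 and PSBR. Whether the counting used strand is not given in the sources used here, so for these genes, and for the ratios of copies that contain them, reads of such pairs may not be told apart.

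LHCB1.5 made up 67.2, 66.0 and 64.0% of the reads of the 5 LHCB1 copies under shade at 28 °C, 58.8, 53.0 and 57.7% under shade at 20 °C, 57.9, 57.5 and 53.2% in white light at 28 °C, and 49.0, 50.1 and 47.3% in white light at 20 °C. The groups at the extremes did not overlap with any other, and the 2 single treatments overlapped. LHCB1.2 made up 3.26 ± 0.20% under shade at 28 °C and 7.48 ± 0.25% in white light at 20 °C (SD, n = 3 each).

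LHCB1.4 (AT2G34430) had 347, 281 and 318 CPM under shade at 28 °C, 910, 969 and 908 CPM under shade at 20 °C, 352, 325 and 218 CPM in white light at 28 °C, and 1643, 1674 and 1744 CPM in white light at 20 °C. Both 28 °C groups overlapped with each other and lay below all libraries at 20 °C. It fell by 2.53 ± 0.12 on the log2 scale with warmth alone (adjusted p = 7.80e-14) and by 0.86 ± 0.12 with shade alone (adjusted p = 2.01e-05), and the difference between shade and white light at 28 °C was 0.11 ± 0.12 (adjusted p = 0.778). It was the single member whose interaction passed: the effect of warmth under shade minus that in white light was 0.97 ± 0.18 (adjusted p = 5.40e-03). Of all tested genes 0.319% had an interaction below 0 and 0.127% one above 0 that passed, and of the members 0 and 1. At an unadjusted p under 0.05, 1 member had a negative and 16 a positive interaction, against 6.64% and 3.22% of all tested genes. The LHCB1.4 call held in 23 of 24 alternatives and was lost with a constant prior variance (adjusted p = 0.318). The count of members was 5 without replicate 1 of white light at 28 °C and 2 without replicate 2 of shade at 20 °C. Of all tested genes 51 and 26 had an interaction above 0 that passed in these fits, against 27 with all libraries.

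**Figure D3:**
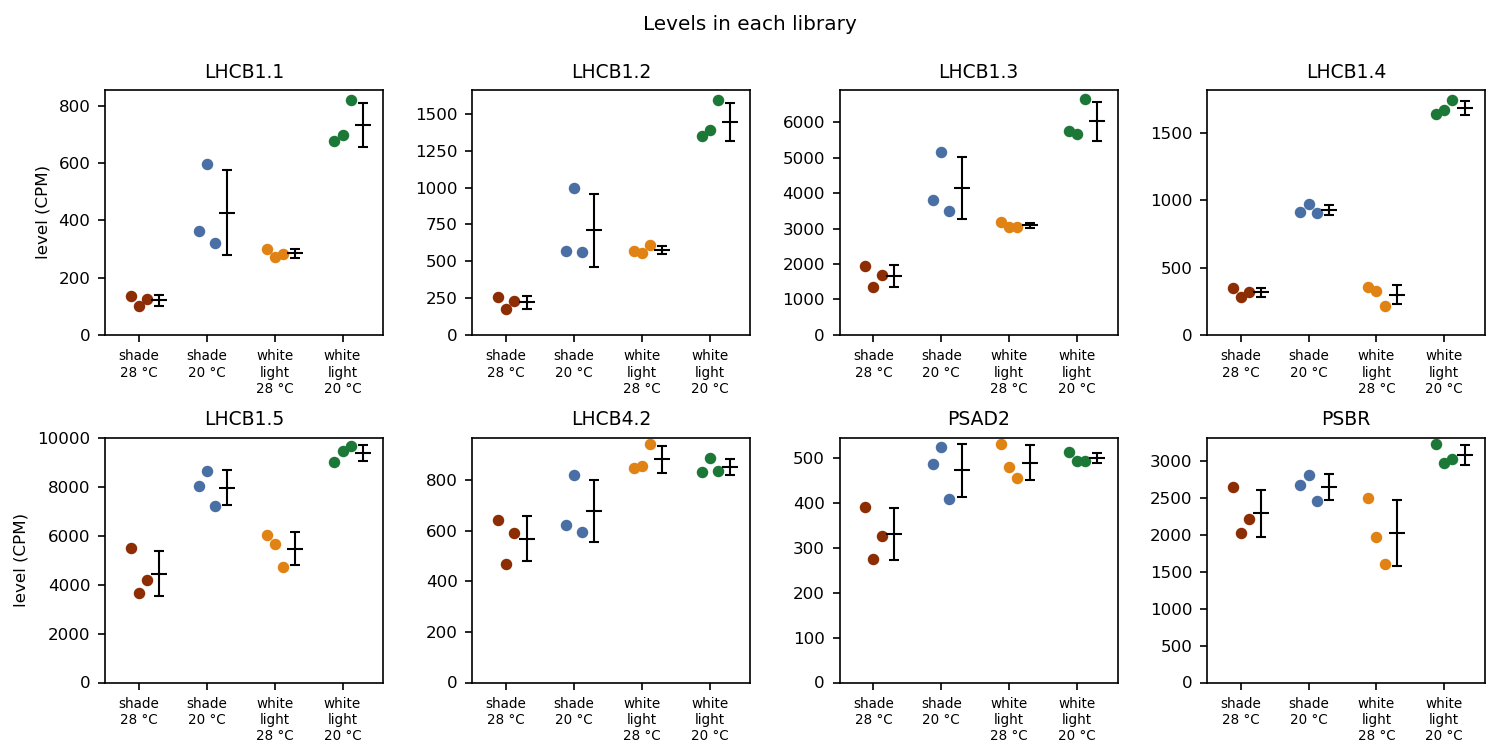
Points show the level (CPM, linear axes from 0) of 8 genes in the 3 libraries of each group, with the mean and SD (n = 3) beside them. LHCB1.1, LHCB1.2 and LHCB1.3 are lowest under shade at 28 °C, while LHCB1.4 lies at 281 to 347 CPM under shade at 28 °C and 218 to 352 CPM in white light at 28 °C.

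The LHCB2 genes, whose proteins pair with LHCB1 in the trimers and are phosphorylated in state transitions, and LHCB3, also a trimer protein, followed. LHCB2.1, LHCB2.2, LHCB2.3 and LHCB3 differed by -1.91, -1.5, -1.72 and -1.56 with shade and warmth together. With warmth alone their differences were -1.37, -0.90, -1.62 and -0.92, and with shade alone -0.66, -0.61, -0.88 and -0.93. All of these differences passed the test. LHCB2.3 had the interaction nearest to the threshold, 0.78 ± 0.18 (adjusted p = 0.0529), which passed in 9 of 24 alternatives.

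The 250 bases upstream of the annotated start are printed for 4 genes: the trimer copies with the strongest fall, the interaction and the weakest fall, and PSBQ2, the lowest of the oxygen-evolving genes. They were read from the RefSeq TAIR10.1 genome, while the submitters' processing notes name TAIR10 for the counts. Capitals mark matches, on either strand, to 6 motifs: CACGTG (the G-box), its variant CACATG, the I-box core GATAAG, the core AAATATCT of the evening element, the CCAAT-type motif CCAATC and the TATA-type motif TATAAA. The windows are chr1:10473503-10473752 (minus strand) for LHCB1.2, chr2:14524357-14524606 (plus strand) for LHCB1.4, chr2:14523569-14523818 (minus strand) for LHCB1.5 and chr4:2673244-2673493 (minus strand) for PSBQ2, and no annotated gene overlaps them.
LHCB1.2: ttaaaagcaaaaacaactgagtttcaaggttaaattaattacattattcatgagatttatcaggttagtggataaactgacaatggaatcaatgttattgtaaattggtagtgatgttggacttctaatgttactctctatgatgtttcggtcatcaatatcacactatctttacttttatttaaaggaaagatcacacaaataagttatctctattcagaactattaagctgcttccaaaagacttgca
LHCB1.4: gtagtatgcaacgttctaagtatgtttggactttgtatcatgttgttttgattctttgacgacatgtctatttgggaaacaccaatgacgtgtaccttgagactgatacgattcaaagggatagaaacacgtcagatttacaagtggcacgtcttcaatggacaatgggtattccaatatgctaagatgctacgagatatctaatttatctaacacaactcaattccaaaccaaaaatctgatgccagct
LHCB1.5: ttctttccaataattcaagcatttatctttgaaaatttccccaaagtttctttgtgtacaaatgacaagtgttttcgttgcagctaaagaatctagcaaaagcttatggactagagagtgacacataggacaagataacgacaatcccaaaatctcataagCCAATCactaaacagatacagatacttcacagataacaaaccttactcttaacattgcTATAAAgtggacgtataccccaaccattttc
PSBQ2: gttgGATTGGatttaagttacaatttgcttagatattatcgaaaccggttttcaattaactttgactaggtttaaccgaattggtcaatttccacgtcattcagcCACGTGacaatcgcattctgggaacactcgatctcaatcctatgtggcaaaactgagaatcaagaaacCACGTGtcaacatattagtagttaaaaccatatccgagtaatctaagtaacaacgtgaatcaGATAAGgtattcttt
The LHCB1.5 window held 1 CCAAT-type and 1 TATA-type match. The PSBQ2 window held 2 G-boxes, 1 I-box core and 1 CCAAT-type match that reads GATTGG on the printed strand. Those of LHCB1.2 and LHCB1.4 held none of the 6. The upstream windows of the 5 LHCB1 copies shared 43.93 to 55.43% of aligned bases. Copies of the other families shared 44.19 to 62.5%, and windows of unrelated genes were not aligned. Each window hangs on its own annotated start, so the windows of copies need not cover the same region.

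Over all such windows CCAATC occurred in 10 of 21 antenna genes, in 1 of 22 core and extrinsic subunit genes and in 10.23% of 27443 protein-coding nuclear genes. CACGTG occurred in 10 of 44 members and 6.486% of these protein-coding genes, GATAAG in 9 and 12.29%, CACATG in 5 and 11.09%, AAATATCT in 1 and 4.788%, and TATAAA in 19 and 47.35%. TATAAA matches on opposite strands shared bases in the LHCA6, PSAE1 and PSAO windows, and matches of different motifs did not overlap in any member. These are matches of letters only.

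Of the monomeric antenna genes, LHCB4 (CP29), LHCB5 (CP26) and LHCB6 (CP24), all 5 genes were lower with shade and warmth together, and the LHCB4 copies parted with warmth alone. LHCB4.2 (AT3G08940) had 645, 470 and 592 CPM under shade at 28 °C, 622, 819 and 595 CPM under shade at 20 °C, 850, 856 and 945 CPM in white light at 28 °C, and 833, 890 and 837 CPM in white light at 20 °C. Its libraries under shade lay below those in white light at both temperatures, and the white light groups overlapped. Its difference was 0.05 ± 0.12 with warmth alone (adjusted p = 0.829), -0.60 ± 0.12 with shade and warmth together (adjusted p = 3.87e-04) and -0.65 ± 0.12 for shade at 28 °C against white light at 28 °C (adjusted p = 7.00e-04). LHCB4.1 differed by -0.70 ± 0.12 with warmth alone (adjusted p = 9.89e-05). The log2 ratio of LHCB4.2 over LHCB4.1 was -1.00, -1.12 and -0.95 under shade at 28 °C, -1.35, -1.22 and -1.28 under shade at 20 °C, -0.76, -0.63 and -0.29 in white light at 28 °C, and -1.42, -1.22 and -1.30 in white light at 20 °C. Both 28 °C groups lay above both 20 °C groups, the highest value being that of the library with most 18S in white light at 28 °C.

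LHCB6 (AT1G15820) had 806, 680 and 762 CPM under shade at 28 °C, 1014, 1284 and 819 CPM under shade at 20 °C, 983, 1050 and 1057 CPM in white light at 28 °C, and 1529, 1414 and 1402 CPM in white light at 20 °C. Its single treatments overlapped with each other and lay between the other groups, and its difference was -0.95 ± 0.12 with shade and warmth together (adjusted p = 8.40e-07). LHCB5 fell by 0.86 on the log2 scale there, with a difference of -0.19 with shade alone that did not pass. LHCB4.3, a copy at 35.8 to 92.6 CPM, was lower in all 3 treated groups, with differences of -0.67 with both treatments, -0.61 with shade and -0.87 with warmth.

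The 4 LHCA genes of the photosystem I belt were lower by 0.68 to 1.07 on the log2 scale with shade and warmth together. LHCA2 (AT3G61470) had 2212, 1570 and 1996 CPM under shade at 28 °C, 2694, 2949 and 2525 CPM under shade at 20 °C, 2782, 2578 and 1870 CPM in white light at 28 °C, and 4133, 3950 and 3947 CPM in white light at 20 °C. LHCA1 (AT3G54890) had 2438, 1769 and 2052 CPM under shade at 28 °C, 2747, 2715 and 2462 CPM under shade at 20 °C, 2546, 2174 and 1782 CPM in white light at 28 °C, and 3303, 3304 and 3327 CPM in white light at 20 °C. For both genes every treated library lay below white light at 20 °C, while the 28 °C groups overlapped. The differences with both treatments were -1.07 ± 0.14 for LHCA2 (adjusted p = 1.16e-06) and -0.68 ± 0.13 for LHCA1 (adjusted p = 2.36e-04). With shade alone LHCA1 differed by -0.33 ± 0.13 (adjusted p = 0.121). LHCA3 and LHCA4 differed by -0.87 and -0.96 with both treatments, and both passed.

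LHCA5, LHCA6 and LHCB7 are antenna genes of low level. LHCA5 and LHCA6 encode linkers between photosystem I and the chloroplast NDH complex, and LHCA5 differed by -0.74 with both treatments, which passed. LHCA6 (AT1G19150) had 69.8, 59.3 and 70.4 CPM under shade at 28 °C, 89.6, 106 and 98.5 CPM under shade at 20 °C, 72.2, 61.3 and 59.8 CPM in white light at 28 °C, and 116, 118 and 121 CPM in white light at 20 °C. The 28 °C groups overlapped and lay below the 20 °C groups, with differences of -0.83 ± 0.11 with both treatments (adjusted p = 2.36e-06) and -0.88 ± 0.11 with warmth alone (adjusted p = 2.65e-06). LHCB7 (AT1G76570) had 11.1, 6.2 and 9.51 CPM under shade at 28 °C, 11.6, 9.68 and 9.26 CPM under shade at 20 °C, 7.27, 17.4 and 9.73 CPM in white light at 28 °C, and 16.1, 13.7 and 13.7 CPM in white light at 20 °C. All libraries under shade at both temperatures lay below those of white light at 20 °C for LHCB7, while white light at 28 °C overlapped with every other group. Its difference of -0.73 ± 0.29 with shade and warmth together did not pass (adjusted p = 0.0721), and it passed in 4 of 24 alternatives.

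The 12 photosystem I subunit genes were all lower with shade and warmth together, by 0.61 to 1.38 on the log2 scale. PSAD and PSAE form the ferredoxin docking side, PSAF binds plastocyanin with the lumenal PSAN, PSAG and PSAK sit beside the antenna, and PSAH, PSAL and PSAO form the side where LHCII docks. PSAH2 (AT1G52230) had 288, 219 and 253 CPM under shade at 28 °C, 348, 339 and 327 CPM under shade at 20 °C, 453, 400 and 284 CPM in white light at 28 °C, and 637, 641 and 697 CPM in white light at 20 °C. It differed by -1.38 ± 0.12 with both treatments (adjusted p = 2.88e-09), by -0.96 ± 0.12 with shade alone (adjusted p = 3.55e-06) and by -0.82 ± 0.12 with warmth alone (adjusted p = 3.13e-05). White light at 20 °C lay above all other libraries, and white light at 28 °C overlapped with both shade groups.

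PSAD2 (AT1G03130) had 391, 275 and 326 CPM under shade at 28 °C, 487, 524 and 409 CPM under shade at 20 °C, 533, 481 and 456 CPM in white light at 28 °C, and 513, 494 and 494 CPM in white light at 20 °C. The groups with a single treatment overlapped with white light at 20 °C, and all libraries under shade at 28 °C lay below all others. Its differences were -0.09 ± 0.11 with shade alone (adjusted p = 0.727), -0.03 ± 0.11 with warmth alone (adjusted p = 0.879) and -0.61 ± 0.11 with both (adjusted p = 1.73e-04). The interaction was -0.49 ± 0.16 and did not pass (adjusted p = 0.22). PSAD1 differed by -0.49 ± 0.12 with warmth alone (adjusted p = 4.23e-03). A gene on the same strand overlaps PSAD2.

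Between the other copies, PSAE1 fell by 1.38 and PSAE2 by 0.78 on the log2 scale with both treatments. The log2 ratio of PSAE1 over PSAE2 was 0.41, 0.07 and 0.32 under shade at 28 °C, 0.33, 0.54 and 0.29 under shade at 20 °C, 0.63, 0.44 and 0.49 in white light at 28 °C, and 0.82, 0.85 and 0.94 in white light at 20 °C. Every treated library lay below every library of white light at 20 °C. PSAF, PSAG, PSAH1, PSAK, PSAL and PSAO fell by 1.03 to 1.36 and PSAN by 0.84. PSAN differed by -0.20 with shade alone, which did not pass, and by -0.82 with warmth alone, which did.

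**Figure D4:**
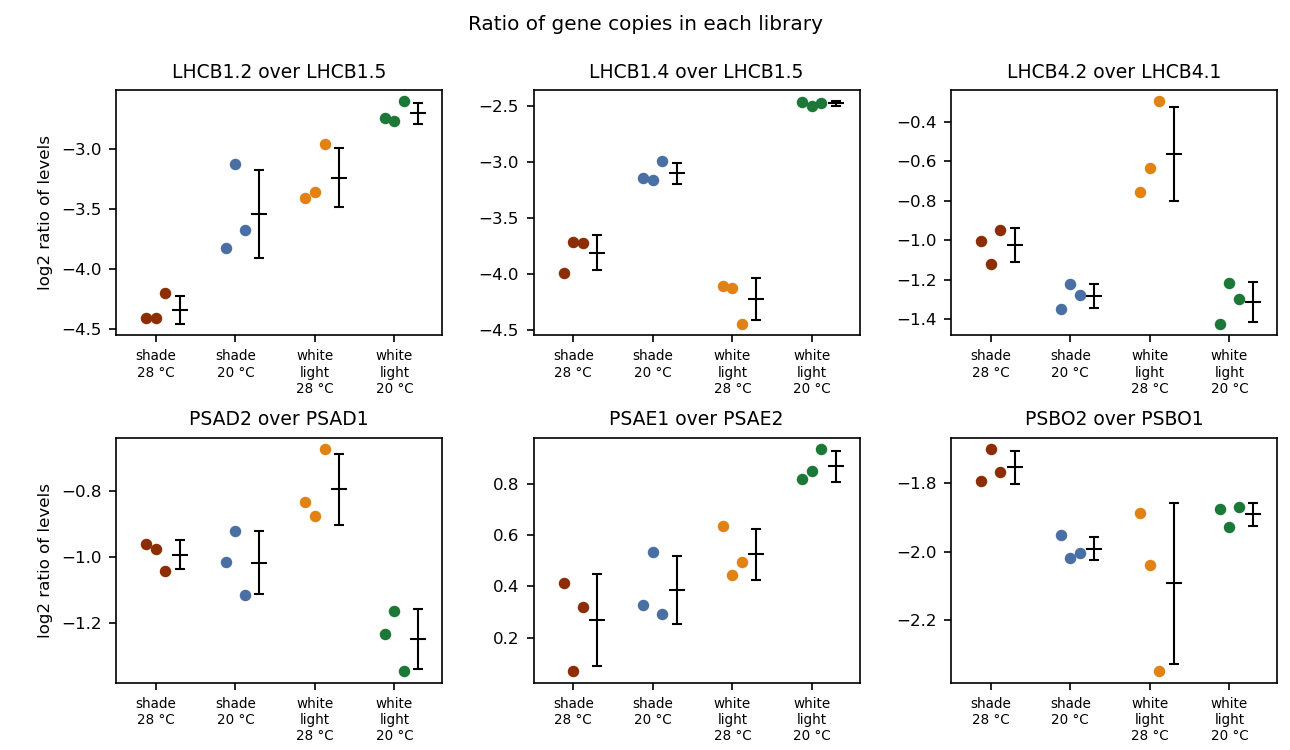
Points show the log2 ratio of the levels of 6 pairs of gene copies in the 3 libraries of each group, with the mean and SD (n = 3) beside them. LHCB1.4 over LHCB1.5 is lower at 28 °C than at 20 °C in every library, and LHCB4.2 over LHCB4.1 is higher at 28 °C than at 20 °C in every library.

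The 5 genes of the oxygen-evolving complex moved as a narrow group, with differences of -0.82 to -0.98 with shade and warmth together. PSBQ2 (AT4G05180) had 464, 379 and 415 CPM under shade at 28 °C, 521, 593 and 494 CPM under shade at 20 °C, 602, 556 and 435 CPM in white light at 28 °C, and 806, 801 and 874 CPM in white light at 20 °C. PSBQ1 (AT4G21280) had 605, 535 and 642 CPM under shade at 28 °C, 878, 1048 and 697 CPM under shade at 20 °C, 730, 774 and 730 CPM in white light at 28 °C, and 1057, 1020 and 1070 CPM in white light at 20 °C. The single treatments overlapped with each other for both genes, and for PSBQ1 shade at 20 °C overlapped with white light at 20 °C. The differences with both treatments were -0.98 ± 0.11 for PSBQ2 (adjusted p = 1.54e-07) and -0.82 ± 0.11 for PSBQ1 (adjusted p = 3.56e-06). PSBO1 and PSBO2, copies of the manganese-stabilising protein, and PSBP1 differed by -0.97, -0.83 and -0.87. Shade at 28 °C against white light at 28 °C called 0 of these 5 genes in limma, with 2 lower and 0 higher at an unadjusted p under 0.05.

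The small photosystem II proteins PSBR, which aids docking of PSBP, PSBW, which stabilises the supercomplex, and PSBX, PSBY and PSBTN were all lower with both treatments. PSBTN (AT3G21055) had 404, 261 and 308 CPM under shade at 28 °C, 440, 453 and 397 CPM under shade at 20 °C, 470, 341 and 282 CPM in white light at 28 °C, and 719, 728 and 747 CPM in white light at 20 °C. PSBR (AT1G79040) had 2645, 2025 and 2206 CPM under shade at 28 °C, 2671, 2801 and 2455 CPM under shade at 20 °C, 2499, 1965 and 1604 CPM in white light at 28 °C, and 3230, 2965 and 3029 CPM in white light at 20 °C. Every treated library lay below white light at 20 °C for both genes, and the treated groups overlapped. PSBTN differed by -1.19 ± 0.14 with both treatments (adjusted p = 2.86e-07), and PSBX, PSBY and PSBW by -1.15, -1.03 and -0.79. PSBR had the smallest fall of the 44 genes, 0.43 ± 0.13 on the log2 scale (adjusted p = 0.0189), and this call was lost in 7 of 24 alternatives. Without replicate 2 of shade at 28 °C it was -0.35 (adjusted p = 0.105), without replicate 3 of that group -0.41 (adjusted p = 0.0728), and without replicate 1 of white light at 20 °C -0.4 (adjusted p = 0.067). With quantile normalization its difference was -0.07.

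PSBS (AT1G44575), the sensor of lumen acidity that triggers heat dissipation, had 782, 664 and 745 CPM under shade at 28 °C, 908, 994 and 828 CPM under shade at 20 °C, 939, 888 and 785 CPM in white light at 28 °C, and 1209, 1230 and 1345 CPM in white light at 20 °C. All treated libraries lay below white light at 20 °C. It differed by -0.79 ± 0.10 with both treatments (adjusted p = 1.39e-06), -0.47 ± 0.10 with shade alone (adjusted p = 2.55e-03) and -0.54 ± 0.10 with warmth alone (adjusted p = 4.81e-04).

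Between antenna and core, the log2 ratio of summed reads was 0.35, 0.29 and 0.31 under shade at 28 °C, 0.54, 0.69 and 0.54 under shade at 20 °C, 0.44, 0.51 and 0.65 in white light at 28 °C, and 0.50, 0.59 and 0.58 in white light at 20 °C. The libraries of shade at 28 °C lay below all others and the remaining groups overlapped. The mean difference between shade at 28 °C and white light at 20 °C was -0.24, and it was 0.0072 when the LHCB1 and LHCB2 copies were left out. Within photosystem II the antenna over core ratio was 0.44 ± 0.05 under shade at 28 °C, 0.91 ± 0.13 under shade at 20 °C, 0.82 ± 0.16 in white light at 28 °C and 0.95 ± 0.06 in white light at 20 °C (SD, n = 3 each). Within photosystem I the same ratio was 0.12, 0.11 and 0.11 under shade at 28 °C, 0.04, 0.03 and 0.05 under shade at 20 °C, 0.06, 0.08 and 0.09 in white light at 28 °C, and -0.13, -0.08 and -0.10 in white light at 20 °C. Every treated library lay above white light at 20 °C there, so the antenna genes of photosystem I kept more of their summed level than its subunit genes. In photosystem II the summed ratio under shade at 28 °C differed from white light at 20 °C by -0.51, and by -0.19 without the LHCB1 and LHCB2 copies. The LHCII trimer genes kept 34.8% of their share there and the monomeric antenna 55.6%, beside 56.4% for the photosystem II core and extrinsic subunits. These ratios carry no test.

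**Figure D5:**
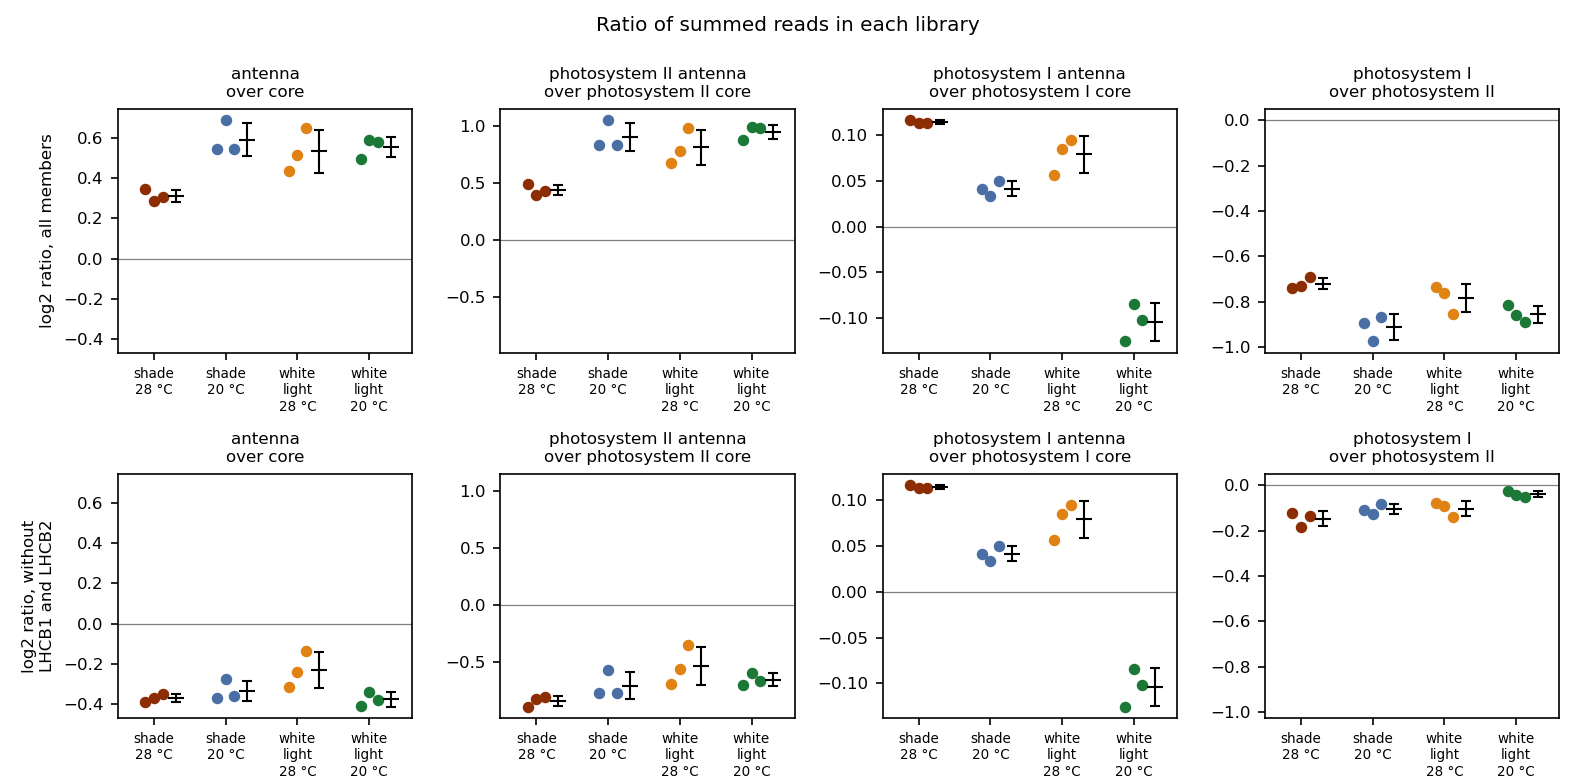
Points show log2 ratios of summed reads in the 3 libraries of each group, with the mean and SD (n = 3) beside them, for all members (upper row) and without the LHCB1 and LHCB2 copies (lower row). The antenna over core ratio of shade at 28 °C, 0.29 to 0.35, lies below the other groups in the upper row, while in the lower row its mean differs from white light at 20 °C by 0.0072.

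Photosystem I over photosystem II had a log2 ratio of -0.72 ± 0.03 under shade at 28 °C, -0.91 ± 0.06 under shade at 20 °C, -0.78 ± 0.06 in white light at 28 °C and -0.85 ± 0.04 in white light at 20 °C (SD, n = 3 each). Its difference between shade at 28 °C and white light at 20 °C was 0.13, and -0.11 without the LHCB1 and LHCB2 copies. Among the core and extrinsic subunits alone the ratio was -0.49, -0.52 and -0.47 under shade at 28 °C, -0.40, -0.33 and -0.38 under shade at 20 °C, -0.34, -0.31 and -0.28 in white light at 28 °C, and -0.21, -0.20 and -0.23 in white light at 20 °C. All treated libraries lay below white light at 20 °C, and shade at 28 °C lay below all others. As a difference of mean log2 levels over the members, in which every gene counts alike, white light at 28 °C overlapped with white light at 20 °C. The difference from white light at 20 °C was then -0.17 under shade at 28 °C, against -0.28 for summed reads, -0.083 under shade at 20 °C, against -0.16, and -0.0081 in white light at 28 °C, against -0.098.

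Shade alone and warmth alone were also set against each other, as shade at 20 °C minus white light at 28 °C. Of the members 1 was lower and 10 were higher under shade, where 4.39% of all tested genes were lower and 3.46% higher, and the median difference was 0.26 against -0.09 over all tested genes. The 10 were LHCA6, LHCB1.1, LHCB1.4, LHCB1.5, LHCB2.1, LHCB2.3, LHCB5, PSAN, PSAO and PSBW, with the largest difference in LHCB1.4, 1.67 ± 0.12 (adjusted p = 6.66e-10). The lower gene was LHCB4.2, at -0.39 ± 0.12 (adjusted p = 0.0356), a call lost in 10 of 24 alternatives. The count of higher members was 5 without replicate 3 of white light at 28 °C, the library with most 18S of that group, and 6 without replicate 2 of shade at 20 °C. Of all tested genes 545 and 556 were higher in these fits, against 737 with all libraries.

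Per kilobase of annotated exon, LHCB1.5 was the most abundant member in all 4 groups, at 4272 ± 899 CPM per kb under shade at 28 °C, 7641 ± 703 under shade at 20 °C, 5244 ± 647 in white light at 28 °C and 8994 ± 307 in white light at 20 °C (SD, n = 3 each). LHCB7 was the least abundant in all 4, at 7.36 ± 2.1, 8.39 ± 1.0, 9.44 ± 4.4 and 11.9 ± 1.1 CPM per kb in the same order. PSBR ranked 2, 3, 2 and 3 of 44 in that order of groups. LHCB1.4 ranked 34 under shade at 28 °C, 23 under shade at 20 °C, 37 in white light at 28 °C and 19 in white light at 20 °C.

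The electron transport list held 16 nuclear genes, of electron transport, ATP synthase and the phosphorylation of thylakoid proteins. With shade and warmth together 13 were lower and 0 higher, with shade alone 7 and 0, and with warmth alone 12 and 0. Of all tested genes 7.42, 2.66 and 4.8% were lower in these comparisons. The median difference of the 16 genes with both treatments was -0.65. ATPD, the delta subunit of ATP synthase, averaged 228 ± 25 CPM under shade at 28 °C and 498 ± 54 CPM in white light at 20 °C, and differed by -1.13 ± 0.11 (adjusted p = 1.13e-08). FED A, a ferredoxin, averaged 736 ± 92 CPM and 1583 ± 112 CPM in these groups and differed by -1.11 ± 0.12 (adjusted p = 1.00e-07). Of 12 genes of antenna insertion and photosystem assembly, 6 were lower and 0 higher with both treatments, 1 and 0 with shade alone, and 4 and 0 with warmth alone, beside the same shares of all tested genes. Their median was -0.34 with both treatments. PSB28 and PSB27, assembly proteins of photosystem II, differed by -1.04 ± 0.12 (adjusted p = 1.55e-07) and -0.65 ± 0.11 (adjusted p = 6.79e-05).

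Of 6 plastid-encoded partner genes 0 were lower and 0 higher with shade and warmth together, also at an unadjusted p under 0.05. They summed to 0.0070 ± 0.0031% of reads under shade at 28 °C and 0.0062 ± 0.0025% in white light at 20 °C, in libraries selected for polyA RNA. The smallest adjusted p-values were those of ATCG00020, at 0.79 ± 0.41 (adjusted p = 0.177), and ATCG00350, at -0.73 ± 0.49 (adjusted p = 0.316). Of the 14 root markers 0 were lower and 4 higher with both treatments, where 7.42% of all tested genes were lower and 14.9% higher. ESB1 and PER64, of the endodermal barrier, differed by 0.44 ± 0.10 (adjusted p = 2.64e-03) and 0.59 ± 0.16 (adjusted p = 7.99e-03). With both treatments 11 of the 14 differences were above 0 and 3 were below. With warmth alone 1 marker was lower and 0 higher, where 4.8% of all tested genes were lower and 10.8% higher. With shade alone 0 were lower and 0 higher, against 2.66% and 5.43% of all tested genes. What part a shift between root and green tissue had in the fall of the photosystem genes was not tested.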

How the data were processed

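The data are polyA RNA-seq libraries of whole seedlings, 4 groups of 3. The deposited table gives log2 CPM on the voom scale, a log2 of reads plus 0.5 scaled to library size, as the values themselves show. Per the submitters' processing notes, TopHat2 2.1.1, SAMtools 1.3, R 4.0.2 and limma were used with TAIR10; the counter, its strand setting and its treatment of reads that fit several genes are not given in the sources used here. Column headers name the temperatures as Amb and Heat, read as 20 °C and 28 °C. Whole reads were recovered from the deposited log2 values for 100% of values within 0.001 read, and totals are in the report; the low depth of LHCB7 limits its precision.

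The log2 values were tested in limma 3.58.1 (R 4.3.3) with 4 group means, a trended prior variance and Benjamini-Hochberg adjustment over 21316 genes, those with a log2 value of at least 0 in 3 or more libraries; the other 12286 were not tested. A fold change of low genes is understated by the added 0.5 read. The fit was tested on simulated data for warmth in white light, with 100 of 21316 genes changed at each fold. It called 47% of genes changed by 1.5-fold and 93% of genes changed by 2-fold. The real comparison called 1023 genes lower and 2310 higher, so these shares need not hold for it. CPM levels, sums and ratios were computed from recovered reads in Python 3.11.15.

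The members and lists were chosen with earlier results of these data known. All members are named; values per library are given, in each role class, for the lowest and highest difference with shade and warmth together, for a passing interaction and for members not called there, and of each other list for the 2 smallest adjusted p. Other genes with values were set beside these after their values were seen. Alternatives were 3 other scalings, constant or robust prior variance, voom weights, other filters, 2 added reads, a library total without the members, the replicate block, leaving out each library, and leaving out the library with most 18S in each group.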

Additional observations from a re-analysis of the deposited data

Results flagged for a closer look

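The effect of warmth on LHCB1.4 differed between the light conditions by the test of the difference itself. The effect under shade minus the effect in white light was 0.97 ± 0.18 on the log2 scale (SE, limma adjusted p = 5.40e-03). The gene fell by 1.56 ± 0.12 with warmth under shade and differed by -2.53 ± 0.12 with warmth in white light, and the libraries at 28 °C overlapped between shade and white light.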

How the results depend on the processing

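Counts of lower members stayed within 1.5 times of the reported ones for shade and warmth together and for warmth alone under every alternative run. With a constant prior variance the counts were 12 for shade alone, 3 for shade at 28 °C, 11 for warmth under shade, 5 higher for shade alone minus warmth alone, and 0 for the interaction. Of all tested genes 249, 124 and 77 were then lower with shade alone, shade at 28 °C and warmth under shade. Higher were 345 for shade alone minus warmth alone and 4 for the interaction. Without the library with most 18S in each group the counts of members were 16 for warmth under shade and 6 for shade alone minus warmth alone. Of all tested genes 190 were lower in the former and 449 higher in the latter. Shade alone minus warmth alone gave 19 with median subtraction, 16 with trimmed mean scaling and 17 with voom weights. Of all tested genes 1200, 1010 and 798 were higher with these settings, against 737 as reported. The interaction gave 2 members (LHCB1.4 and LHCB2.3) with median subtraction, quantile normalization, trimmed mean scaling, a robust prior variance, a filter at a log2 value of 2, 2 added reads and the replicate block. The replicate block changed no other count by over 1.5 times. Correlations of same-numbered deviations ran from -0.0297 to 0.0414 over 18 pairs, and 6 of 12 libraries correlated best with their own number. Whether the replicate numbers pair the libraries was not tested.

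Leaving out each library gave 41 to 41 lower members for warmth alone, 42 to 44 for both treatments, 21 to 34 for shade alone, 8 to 21 for shade at 28 °C, 17 to 36 for warmth under shade, 5 to 14 higher for shade alone minus warmth alone and 1 to 5 for the interaction. For shade alone minus warmth alone, median subtraction moved the lower share of all called genes to 30.7%, against 55.9% as deposited.

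Differences from white light at 20 °C in the ratio of antenna over core became -0.13 (mean log2 over members) and 0.15 (without the LHCB1 and LHCB2 copies) in white light at 28 °C, and -0.30 and 0.0072 under shade at 28 °C. Photosystem I over II became 0.14 and -0.0629 in white light at 28 °C, 0.23 and -0.11 under shade at 28 °C, and 0.0445 (mean log2) under shade at 20 °C. Within photosystem I, antenna over core became 0.09 (mean log2) in white light at 28 °C. Core subunits of photosystem I over II became -0.0081 in white light at 28 °C, -0.083 under shade at 20 °C and -0.1675 under shade at 28 °C (mean log2). Within photosystem II, antenna over core became 0.12 and -0.19 without these copies in white light and shade at 28 °C. By construction these settings weight abundant genes such as LHCB1.5 less. Depth limits LHCB7.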
